A study of Mus musculus with 6 samples.

Results

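The 10 genes described here encode the enzymes that break down threonine, make serine and move single carbon units between amino acids and folate: Tdh, Gcat, Gldc, Shmt1, Shmt2, Mthfd2, Mthfd1l, Phgdh, Psat1 and Psph. They were chosen by gene symbol, and all 10 were among the 19532 gene rows of the table and among the 12098 genes with enough counts to be tested. RNA of single cells of the mouse embryonic stem cell lines IB10 and R1 was counted with SORT-seq, in which cells are sorted into plates and the 3′ ends of their transcripts are counted by unique molecular identifiers (UMIs). Each line gave 1 library in each of 3 culture conditions, so the values below come from 6 libraries of 188 wells each, and each condition holds 2 libraries, 1 per line.

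All cells were kept in serum-free N2B27 medium with LIF, a cytokine that sustains self-renewal. For the primed_4d libraries, IWP2 (2 µM), an inhibitor of WNT secretion, was added for 4 days together with Activin A at 20 ng/ml and FGF2 at 12 ng/ml, with IB10 at passage 28 and R1 at passage 24. For the rosette_LIM libraries, 2 µM IWP2 and 0.1 µM of the MEK inhibitor PD325901 were added, for 5 passages in IB10 (collected at passage 33) and 6 in R1 (collected at passage 28). For the LIF_2i libraries, 3 µM of the GSK3 inhibitor CHIR99021 and 0.1 µM PD325901 were added, with IB10 at passage 28 and R1 at passage 24. Rosette_LIM cells were thus older in passage than LIF_2i and primed_4d cells of the same line. In both comparisons with rosette_LIM, the effect of passage number cannot be told apart from that of the medium.

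Threonine dehydrogenase (TDH) and glycine C-acetyltransferase (GCAT) act one after the other in mitochondria and turn threonine into glycine and acetyl-CoA, and mouse embryonic stem cells are known for a high TDH level and for their need for threonine in culture. Serine is made from an intermediate of glycolysis by PHGDH, PSAT1 and PSPH in turn. The hydroxymethyltransferases SHMT1 (cytosol) and SHMT2 (mitochondria) convert serine to glycine and load a carbon unit onto tetrahydrofolate, the glycine cleavage system with its subunit GLDC loads one from glycine, and MTHFD2 and MTHFD1L carry it on in mitochondria to formate, which feeds purine and thymidylate synthesis.

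Totals per library ran from 4675388 UMIs (primed_4d, R1) to 7806882 UMIs (LIF_2i, IB10). ERCC spike-in RNA took between 1.34% and 2.47% of the UMIs. In the primed_4d library of R1, 84 of 188 wells fell short of 6000 UMIs, and 4 to 38 wells did so elsewhere. The summed level of 7 general pluripotency markers was 4757 to 5606 counts per 1000000 UMIs (CPM) over the 6 libraries. The 8 naive markers summed to 478 and 385 CPM in primed_4d cells (IB10 and R1), 2673 and 2898 CPM in rosette_LIM cells, and 3013 and 2822 CPM in LIF_2i cells. The 6 primed or formative markers summed to 1205 and 1214 CPM in primed_4d, 97.3 and 76.9 CPM in rosette_LIM, and 109 and 97.4 CPM in LIF_2i, so rosette_LIM lay close to LIF_2i on both lists. All 7 feeder fibroblast markers were looked for: Col3a1 and Lum were at 0 in all libraries, and the list summed to 161 to 200 CPM in primed_4d, 285 to 313 CPM in rosette_LIM and 241 CPM in both LIF_2i libraries. The 7 primitive endoderm markers summed to 5.77 to 15.6 CPM, and 7 trophectoderm markers to 32.4 to 44.3 CPM in primed_4d, 81.3 to 81.9 CPM in rosette_LIM and 65.7 to 77.0 CPM in LIF_2i. The 5 mesendoderm markers summed to 4.74 and 8.13 CPM in primed_4d (IB10 and R1), 14.3 and 13.9 CPM in rosette_LIM, and 29.1 and 22.2 CPM in LIF_2i, and the 5 neuroectoderm markers to 78.8 and 149.5, 174 and 219, and 78.4 and 87.4 CPM in the same order. The part of these lists in the results below was not tested.

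Levels are CPM of a library's summed UMIs after TMM scaling of library sizes. Because 1 UMI marks 1 transcript end, CPM does not grow with transcript length. In such summed libraries, fewer cells that express a gene and less RNA of it per cell cannot be told apart, and the single-cell counts further down bear on that. Fold changes are log2 values from edgeR's quasi-likelihood test with condition and cell line as terms. The SE after ± was derived from that test, as the absolute log2 fold change over the square root of its F statistic. A gene is said to rise or fall where its Benjamini-Hochberg adjusted p over the 12098 genes was below 0.05. The labels do not state whether the libraries of a line came from separate cultures, so the p-values speak of the spread among the 6 libraries, which may be technical.

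Against LIF_2i cells, primed_4d cells had less RNA of the threonine-degrading enzyme and more RNA of most others. Protein was not measured. Of the 10 genes, 7 rose (Gldc, Shmt2, Mthfd2, Mthfd1l, Phgdh, Psat1 and Psph), 2 fell (Tdh and Shmt1), and Gcat did not pass the test. Of all genes tested, 37.9% were called in this comparison, 18.3% as higher and 19.6% as lower. The median log2 fold change was 0.69 over the 10 genes and −0.01 over all genes. For 9 of the 10 genes the 2 primed_4d libraries lay apart from the 2 LIF_2i libraries, as they did for 68.3% of all genes.

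Against LIF_2i cells, rosette_LIM cells differed less. Tdh and Shmt1 fell, none of the 10 rose and 8 did not pass edgeR's adjusted test, where 5.54% of all genes were called, 3.19% as higher and 2.35% as lower. At an unadjusted p under 0.05, 4 of the 10 and 19.7% of all genes differed, and DESeq2 and limma also called 2 each. The medians were 0.04 for the 10 genes and 0.00 for all genes, and for 5 of the 10 the groups did not overlap, against 48.5% of all genes. Between primed_4d and rosette_LIM cells, 6 of the 10 rose in primed_4d (Gldc, Shmt2, Mthfd2, Mthfd1l, Phgdh and Psat1), 1 fell (Tdh), and Gcat, Shmt1 and Psph did not pass. The background in this comparison was 36.1% of all genes called, 17.1% as higher and 19% as lower, and 7 of the 10 did not overlap between groups, against 65.5% of all genes. The libraries of each condition enter 2 of these 3 comparisons, so the comparisons are not independent of each other. With wells under 6000 UMIs left out, the counts of the 10 genes called were again 9, 2 and 7, beside 4626, 705 and 4426 of all genes. Fits with 1 library left out are given in the closing section.

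**Figure D1:**
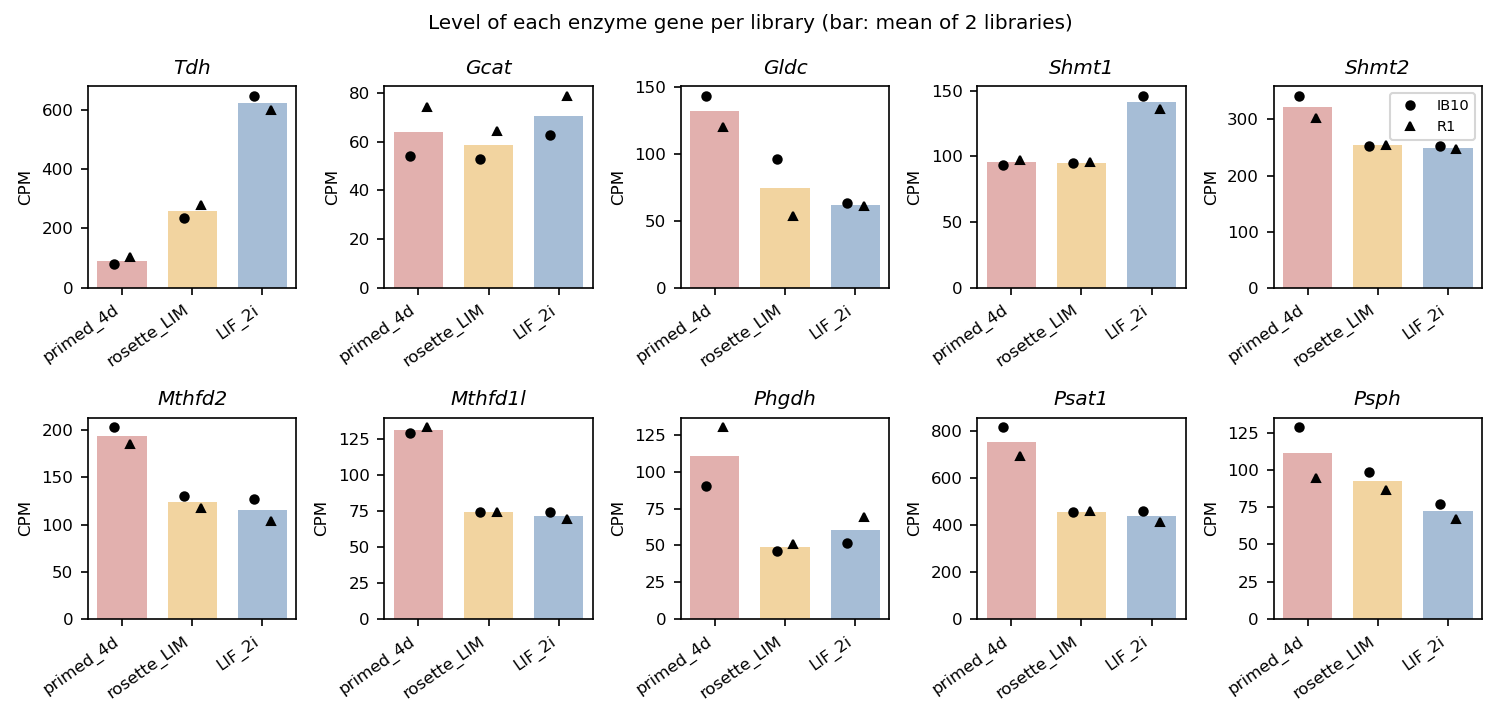
Level of each of the 10 genes in CPM (y axis, from 0) in primed_4d, rosette_LIM and LIF_2i libraries (x axis), with 1 point per library (circle IB10, triangle R1) and a bar at the mean of 2 libraries. Tdh steps up over the 3 conditions as drawn, Shmt1 is high in LIF_2i, and Gldc, Mthfd2, Mthfd1l, Phgdh and Psat1 are highest in primed_4d.

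**Figure D2:**
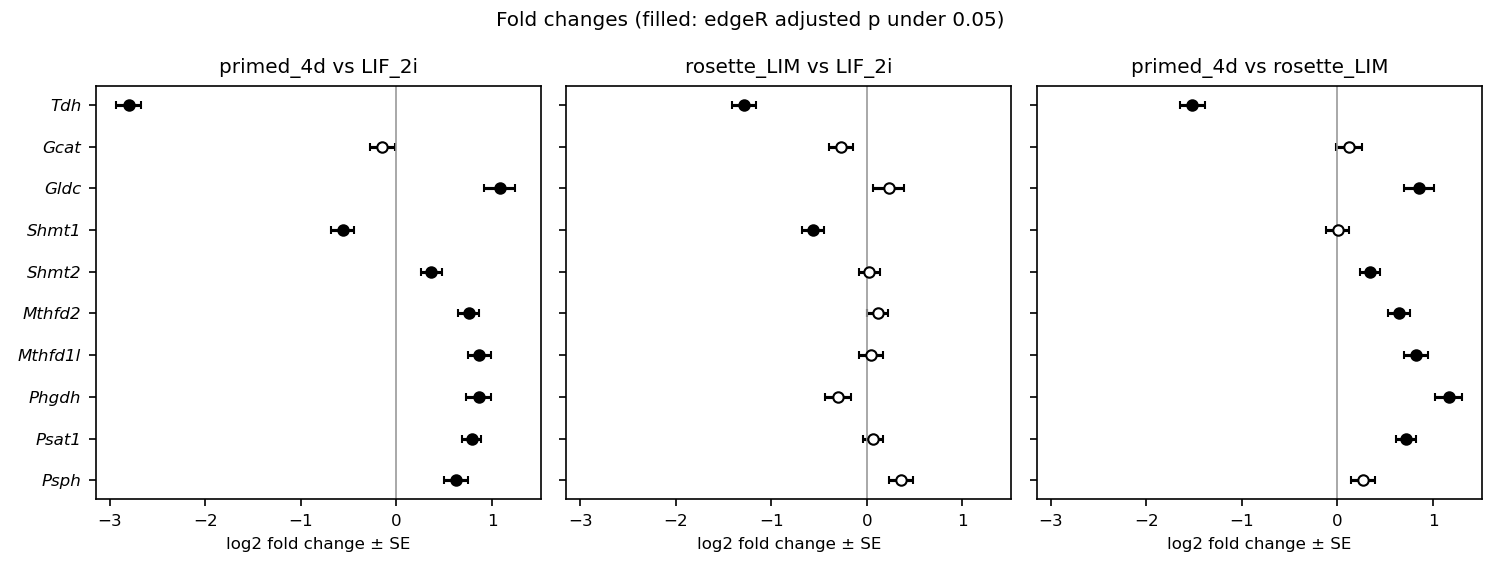
Log2 fold change ± SE (x axis) of each gene (rows) in primed_4d against LIF_2i, rosette_LIM against LIF_2i, and primed_4d against rosette_LIM, with filled points where edgeR's adjusted p was below 0.05. Filled points lie left of 0 for Tdh in all 3 panels and for Shmt1 in the first 2, and right of 0 for 7 genes in the first panel and 6 in the third.

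Tdh, which catalyses the first step of threonine breakdown, lies at chr14:63492347-63509092 on the minus strand of GRCm38. Its level was 78.5 CPM in IB10 and 102 CPM in R1 primed_4d cells, 235 CPM in IB10 and 280 CPM in R1 rosette_LIM cells, and 649 CPM in IB10 and 599 CPM in R1 LIF_2i cells. No library of one condition overlapped with another condition. The mean was 90.1 ± 16.5 CPM in primed_4d and 624 ± 35.3 CPM in LIF_2i (SD, n = 2 each), and Tdh fell 6.98-fold in primed_4d (log2 fold change −2.80 ± 0.13, edgeR adjusted p = 1.4e-09). Against LIF_2i, Tdh fell by 1.29 ± 0.12 on the log2 scale in rosette_LIM (edgeR adjusted p = 1.89e-05), and between primed_4d and rosette_LIM the log2 fold change was −1.52 ± 0.13 (edgeR adjusted p = 5.37e-07). In primed_4d against LIF_2i, the log2 difference was −3.05 in IB10 and −2.56 in R1.

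Gcat, the enzyme that follows TDH, lies at chr15:79030874-79038353 on the plus strand. A second GENCODE M21 entry named Gcat lies at chr15:79030901-79042531, and reads of the 2 may not be told apart. Galr3, at 0 UMIs over all libraries, overlaps the 3′ end of Gcat on the same strand. The Gcat level was 54.0 CPM in IB10 and 74.2 CPM in R1 primed_4d cells, 52.7 and 64.4 CPM in the rosette_LIM libraries of IB10 and R1, and 62.6 and 79.0 CPM in the LIF_2i libraries of IB10 and R1. The ranges of the 3 conditions overlapped, and the log2 fold changes were −0.15 ± 0.13 (edgeR adjusted p = 0.39) in primed_4d and −0.27 ± 0.13 (adjusted p = 0.262) in rosette_LIM, both against LIF_2i. The 2 genes of the threonine pathway thus did not move by the same amount: the log2 ratio of Tdh to Gcat was 0.54 and 0.46 in primed_4d (IB10 and R1), 2.16 and 2.12 in rosette_LIM, and 3.37 and 2.92 in LIF_2i.

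Gldc, the glycine-decarboxylating subunit of the glycine cleavage system, lies at chr19:30098447-30175429 on the minus strand. Its level was 144 CPM in IB10 and 121 CPM in R1 primed_4d cells, 96.1 CPM in IB10 and 53.6 CPM in R1 rosette_LIM cells, and 63.5 and 60.8 CPM in the LIF_2i libraries of IB10 and R1. Both primed_4d libraries were above all others, and the 2 rosette_LIM libraries lay on either side of the LIF_2i libraries. Gldc rose in primed_4d by 1.08 ± 0.16 log2 units against LIF_2i (edgeR adjusted p = 9.39e-05) and by 0.85 ± 0.16 against rosette_LIM (adjusted p = 0.000802). Without the R1 rosette_LIM library the second value was 0.53. Against LIF_2i the rosette_LIM value was 0.23 ± 0.16 (adjusted p = 0.49). It was 0.55 and past the threshold without the R1 rosette_LIM library, −0.14 without the IB10 rosette_LIM library, and −0.02 without the IB10 LIF_2i library.

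Summed over Tdh, Gcat and Gldc, the level was 276 and 297 CPM in primed_4d (IB10 and R1), 384 and 398 CPM in rosette_LIM, and 775 and 739 CPM in LIF_2i. The 3 conditions did not overlap in this sum, and Tdh made up most of it in LIF_2i.

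The genes of the cytosolic and the mitochondrial serine hydroxymethyltransferase moved in opposite directions in primed_4d. Shmt1 (chr11:60788104-60811718, minus strand) was at 93.8 and 97.6 CPM in primed_4d (IB10 and R1), 94.7 and 96.1 CPM in rosette_LIM, and 146 and 136 CPM in LIF_2i. Shmt2 (chr10:127517123-127522444, minus strand) was at 343 and 302 CPM in primed_4d (IB10 and R1), 253 and 255 CPM in rosette_LIM, and 252 and 247 CPM in LIF_2i.

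The LIF_2i libraries were the 2 highest for Shmt1 and the primed_4d libraries the 2 highest for Shmt2. Shmt1 fell by 0.56 ± 0.12 log2 units in primed_4d (edgeR adjusted p = 0.00166) and by 0.57 ± 0.12 in rosette_LIM (adjusted p = 0.0107), both against LIF_2i, and primed_4d and rosette_LIM differed by 0.00 ± 0.12. Without the IB10 LIF_2i library the Shmt1 values were −0.50 in primed_4d and −0.49 in rosette_LIM and neither passed, and without the R1 LIF_2i library the rosette_LIM value was −0.64 and did not pass. Shmt2 rose in primed_4d by 0.37 ± 0.11 against LIF_2i (adjusted p = 0.0139) and by 0.34 ± 0.11 against rosette_LIM (adjusted p = 0.0222).

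The Shmt2 values kept their direction with any 1 library left out, but neither call held in every such fit. Such fits also have fewer residual degrees of freedom. Against LIF_2i, the value was 0.28 without the IB10 primed_4d library, 0.33 without the IB10 LIF_2i library and 0.39 without the R1 LIF_2i library, and none of these passed. Against rosette_LIM, the value was 0.25 without the IB10 primed_4d library, 0.29 without the IB10 rosette_LIM library, 0.33 without the IB10 LIF_2i library and 0.35 without the R1 LIF_2i library, again without passing. The log2 ratio of Shmt2 to Shmt1 was 1.87 and 1.63 in primed_4d (IB10 and R1), 1.42 and 1.41 in rosette_LIM, and 0.78 and 0.86 in LIF_2i, with no overlap between conditions. On the opposite strand, Smcr8 overlaps the 3′ end of Shmt1 (601 UMIs over all libraries) and Ndufa4l2 that of Shmt2 (175 UMIs). The sources used here do not state whether the counting used strand, so reads of each pair may not be told apart.

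The genes of the mitochondrial folate enzymes rose in primed_4d. Mthfd2 (chr6:83305691-83325908, minus strand), the dehydrogenase and cyclohydrolase, was at 203 and 185 CPM in primed_4d (IB10 and R1), 130 and 118 CPM in rosette_LIM, and 127 and 104 CPM in LIF_2i. Mthfd1l (chr10:3973118-4167081, plus strand), which releases formate, was at 129 and 133 CPM in primed_4d (IB10 and R1), 74.0 and 74.3 CPM in rosette_LIM, and 74.3 and 69.5 CPM in LIF_2i.

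For both genes the primed_4d libraries lay above all others, and the rosette_LIM and LIF_2i libraries were close together. Against LIF_2i, the log2 fold change in primed_4d was 0.76 ± 0.11 for Mthfd2 (edgeR adjusted p = 9.94e-05) and 0.87 ± 0.12 for Mthfd1l (adjusted p = 5.49e-05). Against rosette_LIM, it was 0.64 ± 0.11 for Mthfd2 (adjusted p = 0.000465) and 0.82 ± 0.12 for Mthfd1l (adjusted p = 0.000117). Between rosette_LIM and LIF_2i, Mthfd2 differed by 0.11 ± 0.11 and Mthfd1l by 0.04 ± 0.12.

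Mthfd1, whose product does the same chemistry in the cytosol, was at 193 and 192 CPM in primed_4d (IB10 and R1), 228 and 198 CPM in rosette_LIM, and 227 and 179 CPM in LIF_2i. Its log2 fold change in primed_4d against LIF_2i was −0.07 ± 0.12 (edgeR adjusted p = 0.667). The log2 ratio of Mthfd2 to Mthfd1 was 0.08 and −0.05 in primed_4d (IB10 and R1), −0.80 and −0.75 in rosette_LIM, and −0.84 and −0.79 in LIF_2i.

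The 3 genes of serine synthesis were higher in both primed_4d libraries than in either LIF_2i library. Their summed level was 1038 and 918 CPM in primed_4d (IB10 and R1), 600 and 597 CPM in rosette_LIM, and 590 and 551 CPM in LIF_2i. Promoter windows are shown for these genes and Mthfd2, as 4 of the 7 members that rose in primed_4d, and for Mthfd1l, which rose as well but holds none of the motifs searched. Each runs from 250 bases before to 50 bases after the start of the gene in RefSeq on GRCm38.p6, 5′ to 3′ on the gene's own strand (plus for Mthfd1l, minus for the others). Capitals mark CCAAT, or its reverse complement ATTGG, the core of the box that the factor NF-Y binds. The windows lie at chr3:98339920-98340219 (Phgdh), chr19:15925010-15925309 (Psat1, the first of 2 windows), chr5:129787204-129787503 (Psph), chr6:83317555-83317854 (Mthfd2) and chr10:3972825-3973124 (Mthfd1l).
Phgdh: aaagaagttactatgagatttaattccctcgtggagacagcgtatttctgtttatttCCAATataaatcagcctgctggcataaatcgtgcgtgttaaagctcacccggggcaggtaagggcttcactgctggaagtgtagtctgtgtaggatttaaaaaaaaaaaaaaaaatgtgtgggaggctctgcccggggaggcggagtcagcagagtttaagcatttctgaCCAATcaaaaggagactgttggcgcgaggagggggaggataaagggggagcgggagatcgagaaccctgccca
Psat1: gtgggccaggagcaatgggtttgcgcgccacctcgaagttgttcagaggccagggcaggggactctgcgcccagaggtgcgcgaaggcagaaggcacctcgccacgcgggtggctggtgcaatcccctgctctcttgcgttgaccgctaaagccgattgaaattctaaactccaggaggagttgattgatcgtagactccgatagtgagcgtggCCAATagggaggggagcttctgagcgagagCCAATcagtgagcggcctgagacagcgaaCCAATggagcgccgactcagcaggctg
Psph: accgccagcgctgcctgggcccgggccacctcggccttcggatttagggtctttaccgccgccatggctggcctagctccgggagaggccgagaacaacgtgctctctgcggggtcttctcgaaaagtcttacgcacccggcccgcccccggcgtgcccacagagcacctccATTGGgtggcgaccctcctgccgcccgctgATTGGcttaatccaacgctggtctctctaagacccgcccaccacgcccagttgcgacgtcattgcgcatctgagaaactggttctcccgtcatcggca
Mthfd2: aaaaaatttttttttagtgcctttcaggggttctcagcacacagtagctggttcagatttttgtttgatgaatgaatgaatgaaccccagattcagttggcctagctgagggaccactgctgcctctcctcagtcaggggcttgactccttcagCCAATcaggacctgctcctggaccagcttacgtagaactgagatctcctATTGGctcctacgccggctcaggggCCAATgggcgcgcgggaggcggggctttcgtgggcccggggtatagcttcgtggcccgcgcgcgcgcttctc
Mthfd1l: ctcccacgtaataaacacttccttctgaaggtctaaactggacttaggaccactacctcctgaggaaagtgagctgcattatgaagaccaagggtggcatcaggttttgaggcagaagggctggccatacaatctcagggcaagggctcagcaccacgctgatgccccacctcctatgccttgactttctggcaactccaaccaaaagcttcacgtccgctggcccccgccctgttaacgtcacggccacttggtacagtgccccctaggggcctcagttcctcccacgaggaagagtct

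RefSeq windows were found for 9 of the 10 genes, all but Tdh. CCAAT was found on either strand in 6 of the 9 genes (Gldc, Shmt1, Mthfd2, Phgdh, Psat1 and Psph) and in 41.1% of all genes in the table (37.4% of its 32851 windows). The windows of Shmt2 and Mthfd1l and the second window of Psat1 held none, and all 3 genes rose in primed_4d. Shmt1, whose window held a match, fell in primed_4d against LIF_2i. This motif was chosen after the sequences had been read. TGATGNAA, the core of an element bound by ATF4 with C/EBP partners, was found in none of the 9 genes and in 4.51% of all genes (3.97% of windows). The E-box CACGTG, bound by MYC and other factors, was found in 1 of the 9 genes (Gcat) and in 8.09% of all genes (7.15% of windows). Both strands were searched for each motif, and a match is a run of letters, not a site shown to be bound.

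Psat1 (chr19:15904678-15947337, minus strand), the aminotransferase of the pathway, had levels of 819 CPM in IB10 and 694 CPM in R1 primed_4d cells, 455 and 459 CPM in the rosette_LIM libraries of IB10 and R1, and 461 and 415 CPM in the LIF_2i libraries of IB10 and R1. Both primed_4d libraries were above all others. Its log2 fold change in primed_4d was 0.79 ± 0.10 against LIF_2i (edgeR adjusted p = 3.32e-05) and 0.72 ± 0.10 against rosette_LIM (adjusted p = 8.73e-05). Rosette_LIM and LIF_2i differed by 0.06 ± 0.10 log2 units.

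Phgdh (chr3:98313170-98339990, minus strand), which commits the glycolytic intermediate to serine, had levels of 90.6 CPM in IB10 and 130 CPM in R1 primed_4d cells, 46.3 and 51.2 CPM in the rosette_LIM libraries of IB10 and R1, and 51.6 and 69.5 CPM in the LIF_2i libraries of IB10 and R1. The primed_4d libraries were again the 2 highest, and the rosette_LIM libraries the 2 lowest. Phgdh rose in primed_4d by 0.86 ± 0.13 log2 units against LIF_2i (edgeR adjusted p = 0.000145) and by 1.16 ± 0.14 against rosette_LIM (adjusted p = 1.45e-05). The rosette_LIM value against LIF_2i was −0.30 ± 0.14 (adjusted p = 0.247). The annotation also lists a pseudogene of Phgdh, and reads shared with it could not be told apart.

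Psph (chr5:129765558-129787449, minus strand), the phosphatase of the last step, had levels of 129 CPM in IB10 and 94.6 CPM in R1 primed_4d cells, 98.3 and 86.5 CPM in the rosette_LIM libraries of IB10 and R1, and 77.2 and 67.1 CPM in the LIF_2i libraries of IB10 and R1. The ranges of primed_4d and rosette_LIM overlapped, and both lay above LIF_2i. Psph rose in primed_4d against LIF_2i by 0.62 ± 0.13 (edgeR adjusted p = 0.0013), and this call was lost without the IB10 LIF_2i library, at 0.55. The values were 0.36 ± 0.13 (edgeR adjusted p = 0.123) for rosette_LIM against LIF_2i and 0.26 ± 0.13 (edgeR adjusted p = 0.118) for primed_4d against rosette_LIM. Cct6a (39735 UMIs over all libraries) overlaps Psph on the opposite strand, but not at the 3′ end of Psph. Whether its reads entered the Psph counts was not tested.

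Between the cell lines, over all 3 conditions, edgeR called 0 of the 10 genes, and DESeq2 and limma also called 0, where edgeR called 0.752% of all genes, 0.24% as higher and 0.512% as lower in IB10. At an unadjusted p under 0.05, 4 of the 10 differed, against 10.7% of all genes. Of these, Gldc (0.38 ± 0.13) and Psph (0.28 ± 0.10) were higher and Gcat (−0.36 ± 0.11) and Phgdh (−0.38 ± 0.11) lower in IB10 than in R1, as log2 fold changes. The Gldc value was 0.16 without either rosette_LIM library. The lines did not overlap for 1 of the 10 genes, Gcat, and for 5.74% of all genes. Phgdh was lower in IB10 in 3 of 3 conditions. Its value was −0.48 and past the threshold with either rosette_LIM library left out. The remaining rosette_LIM library then gives no difference between the lines, so these fits are not separate checks. Within rosette_LIM, Gldc was higher in IB10 than in R1 by 0.84 log2 units.

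Genes whose levels followed those of Tdh, Gldc and Phgdh most closely over the 6 libraries were found by Pearson's r of log2(CPM + 2) over 6266 genes with a mean of at least 20 CPM. The 6 points fall into 3 conditions, so many genes reach a high r, and r does not measure the size of a change. For Tdh they were Nubp1 (0.999), Cisd3 (0.998) and Sh3gl2 (0.997). For Gldc they were Nampt and Rars2 (both 0.990) and Paip2 (0.987). For Phgdh they were Hras1 (0.998), Zfp512 (0.996) and Eif3f (0.996). Nubp1 changed far less than Tdh, from 65.6 and 67.8 CPM in primed_4d (IB10 and R1) to 102 and 101 CPM in LIF_2i.

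In single cells thinned to 6000 UMIs each, Tdh was found in most LIF_2i cells and in a minority of primed_4d cells. Wells under 6000 UMIs were left out, 18 and 84 in primed_4d (IB10 and R1), 38 and 9 in rosette_LIM and 4 and 28 in LIF_2i. At least 1 Tdh UMI was found in 35.9% of 170 IB10 cells (95% exact binomial interval 28.7% to 43.6%) and 28.8% of 104 R1 cells (20.4% to 38.6%) in primed_4d. The shares were 62.7% of 150 IB10 cells and 78.8% of 179 R1 cells in rosette_LIM, and 97.3% of 184 IB10 cells and 98.1% of 160 R1 cells in LIF_2i. Over all wells without thinning they were 66.0% and 51.6% in primed_4d (IB10 and R1), 82.4% and 93.6% in rosette_LIM, and 99.5% and 92.6% in LIF_2i. The intervals cover counting error alone. No cell type that should lack Tdh was at hand to measure free RNA, the 4 wells left empty per sample are not analysed here, and no doublet caller was run on these sorted cells.

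Tdh varied more between primed_4d and rosette_LIM cells than most genes of like mean. Its variance over mean at 6000 UMIs per cell, which is 1 for counting error alone, was 1.91 and 2.87 in primed_4d (IB10 and R1), 1.57 and 1.38 in rosette_LIM, and 1.08 and 1.16 in LIF_2i. The median of genes with a like mean was 1.07 and 1.06 in primed_4d, 1.09 and 1.13 in rosette_LIM, and 1.18 and 1.16 in LIF_2i. Of these genes, 99.3% in IB10 and 99.4% in R1 lay below Tdh in primed_4d, 98.3% and 87.4% in rosette_LIM, and 25.3% and 53.0% in LIF_2i. The tenth of cells with the most Tdh held 50.5% and 65.6% of its UMIs in primed_4d (IB10 and R1) and 21.4% and 21.3% in LIF_2i, while from the mean level alone 42.1% and 44.4% of primed_4d cells would have had a Tdh UMI.

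**Figure D3:**
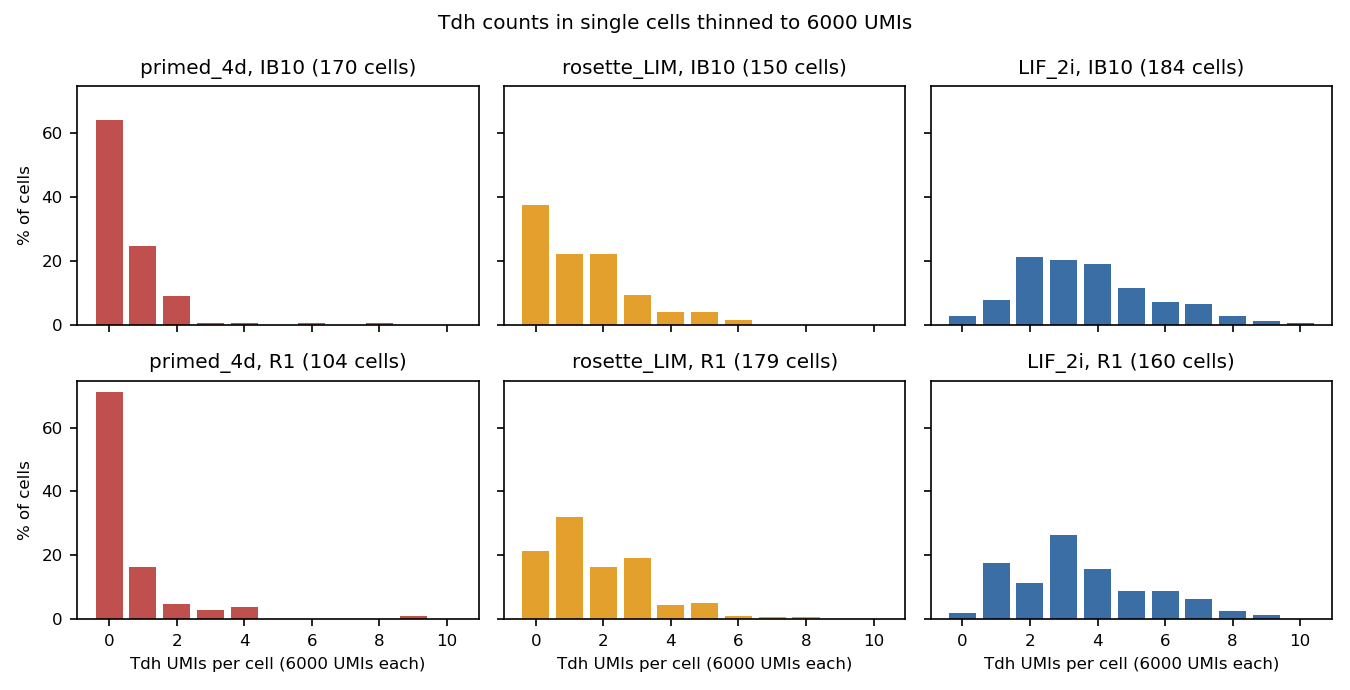
Share of cells (y axis, %) by their number of Tdh UMIs (x axis) after thinning each cell to 6000 UMIs, for primed_4d, rosette_LIM and LIF_2i (columns) in IB10 and R1 (rows). Most primed_4d cells hold 0 Tdh UMIs and a few hold up to 8 in IB10 and 9 in R1, whereas LIF_2i cells spread around 3 to 4.

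Primed_4d cells with more Tdh also held more naive marker and fewer primed marker UMIs. Of the IB10 cells, 19 had 2 or more Tdh UMIs, 42 had 1 and 109 had 0, and the median summed count of the 8 naive markers was 5, 2 and 1 UMIs in that order. Of the R1 cells, 13 had 2 or more, 17 had 1 and 74 had 0, with naive marker medians of 6, 2 and 1 UMIs. The 6 primed or formative markers had medians of 2, 4 and 6 UMIs in IB10 and 3, 5 and 7 UMIs in R1 over the same 3 bins. In rosette_LIM, the naive marker medians were 15, 15 and 15 UMIs in IB10 and 17, 15 and 17 UMIs in R1.

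The bins were chosen after the spread of Tdh between cells was seen, and those of 2 or more hold under 20 cells in each primed_4d library. Spearman's rho between Tdh and the naive markers across cells was 0.36 in IB10 (170 cells) and 0.32 in R1 (104 cells) in primed_4d, −0.02 and 0.13 in rosette_LIM, and −0.01 and 0.10 in LIF_2i. With the 7 general pluripotency markers, rho was 0.15 and 0.23 in primed_4d (IB10 and R1). It was 0.09 and 0.21 in rosette_LIM, and 0.12 and 0.09 in LIF_2i. Cells of a library share a plate, and all were thinned to the same depth, so these are descriptions without a test.

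**Figure D4:**
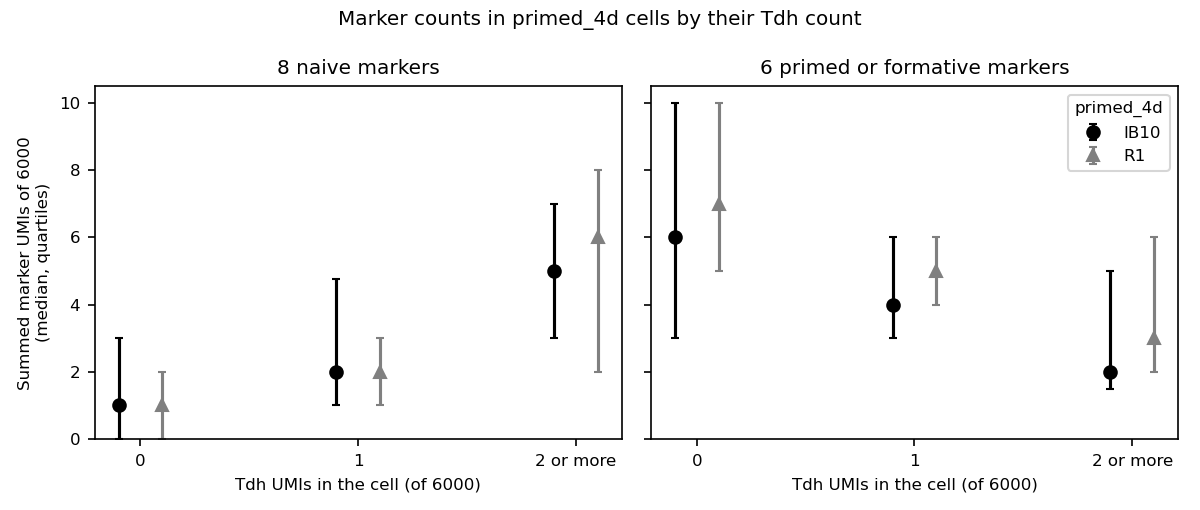
Summed UMIs per cell (y axis) of 8 naive markers (left) and 6 primed or formative markers (right) in primed_4d cells with 0, 1 and 2 or more Tdh UMIs (x axis), at 6000 UMIs per cell. Points are medians and bars quartiles (black IB10, grey R1): naive markers go up to medians of 5 and 6 and primed markers down to 2 and 3 in the cells with most Tdh.

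In primed_4d, none of the other 9 genes stood as far above genes of like mean, at most above 86.9% of them in IB10 (Mthfd2) and 78.6% in R1 (Psat1). In LIF_2i the order differed. Mthfd2 had a variance over mean of 1.29 in IB10 and 1.46 in R1, above 95.4% and 98.7% of like genes and above Tdh in both libraries. In the R1 rosette_LIM library, Psph had 1.44, above 98.6% of like genes, but 1.14 in that of IB10, above 73.7%. Gldc was found in 57.1% and 49.0% of primed_4d cells (IB10 and R1), 45.3% and 28.5% of rosette_LIM cells, and 32.1% and 30.0% of LIF_2i cells at 6000 UMIs. Psat1 was found in at least 88.8% of cells of each library. Across cells, the median of Spearman's rho over the 45 pairs of the 10 genes was 0.04, which in counts this sparse is no finding.

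Among the neighbouring steps of the pathway, few of the other folate genes and of the rest of the glycine cleavage system passed the test. Of 14 tested folate genes, 2 rose and 1 fell in primed_4d against LIF_2i, none differed between rosette_LIM and LIF_2i, and 2 rose in primed_4d against rosette_LIM, where 37.9%, 5.54% and 36.1% of all genes tested were called in these 3 comparisons. In primed_4d against LIF_2i, the log2 fold change was 0.59 ± 0.22 for Slc25a32, which carries folate into mitochondria. It was −0.97 ± 0.34 for Aldh1l1, which oxidises formyl-tetrahydrofolate. Against rosette_LIM, Slc25a32 (0.63 ± 0.23) and the folate carrier Slc19a1 (0.95 ± 0.33) rose.

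Of 5 tested glycine cleavage genes besides Gldc, 1 fell in primed_4d against LIF_2i, Lias (−0.39 ± 0.13), which makes the lipoyl cofactor. The calls of the named folate genes and of Lias did not hold in every fit with 1 library left out. With 1 library left out, values ran from 0.51 to 0.67 for Slc25a32 (lost without any 1 of the 4 libraries compared), from −1.54 to −0.43 for Aldh1l1 (lost without the IB10 primed_4d library or either LIF_2i library) and from −0.44 to −0.34 for Lias (lost without any 1 of the 4). Against rosette_LIM, Slc25a32 ran from 0.55 to 0.71 (lost without any 1 of the 6) and Slc19a1 from 0.40 to 1.64 (lost without either primed_4d library or the R1 rosette_LIM library).

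In the methionine cycle and transsulfuration, 3 of 16 tested genes rose and 6 fell in primed_4d against LIF_2i, 1 fell in rosette_LIM against LIF_2i, and 4 rose and 6 fell in primed_4d against rosette_LIM. Of all genes tested, 37.9%, 5.54% and 36.1% were called in the same 3 comparisons. The betaine methyltransferase Bhmt was at 0 and 1.07 CPM in primed_4d (IB10 and R1), 17.0 and 24.2 CPM in rosette_LIM, and 32.2 and 16.5 CPM in LIF_2i. The primed_4d libraries held 5 Bhmt UMIs in all, each from R1, against 366 in LIF_2i, and edgeR's log2 fold change was −5.53 ± 0.59. The fitted value was −4.31 without the IB10 primed_4d library and −10.35 without the R1 primed_4d library, which leaves no Bhmt UMI in primed_4d, so that the second value depends on the prior count and is no bound. Its paralog Bhmt2 had 2 UMIs in primed_4d and 97 in LIF_2i, a level ratio of 0.0306 (95% exact counting interval 0.00366 to 0.114). Gnmt, the glycine methyltransferase that uses up S-adenosylmethionine, was at 8.34 and 10.9 CPM in primed_4d (IB10 and R1), 2.34 and 2.44 CPM in rosette_LIM, and 3.08 and 1.57 CPM in LIF_2i.

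Gnmt rose in primed_4d by 2.03 ± 0.40 against LIF_2i (1.49 and not past the threshold without the R1 LIF_2i library) and by 2.00 ± 0.41 against rosette_LIM. Mat2b, a regulatory subunit of methionine adenosyltransferase, rose by 0.59 ± 0.12 against LIF_2i (0.53 and lost without the IB10 LIF_2i library), and the spermidine synthase Srm by 0.59 ± 0.12 against rosette_LIM. Cbs, the first enzyme of transsulfuration, fell by 1.18 ± 0.20 in rosette_LIM against LIF_2i (−1.005 and lost without the R1 LIF_2i library). Bhmt and Bhmt2 were also lower in primed_4d than in rosette_LIM, with 226 Bhmt UMIs and 35 Bhmt2 UMIs in rosette_LIM.

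In purine and thymidylate synthesis, 3 of 18 tested genes rose and 3 fell in primed_4d against LIF_2i, 1 fell in rosette_LIM against LIF_2i, and 6 rose and 2 fell in primed_4d against rosette_LIM. Beside the 37.9%, 5.54% and 36.1% of all genes called, the first 2 counts, 6 and 1 of 18, are near the background. Prps2, which makes the ribose phosphate donor, rose in primed_4d by 0.98 ± 0.13 against LIF_2i and by 1.12 ± 0.13 against rosette_LIM. Dut, the dUTP phosphatase, rose by 0.57 ± 0.10 against LIF_2i (0.51 and lost without the R1 LIF_2i library), and the GMP synthase Gmps by 0.90 ± 0.13 against rosette_LIM. The thymidine kinase Tk1 fell by 0.87 ± 0.13 against LIF_2i and by 0.56 ± 0.13 against rosette_LIM. The thymidylate kinase Dtymk fell by 0.31 ± 0.11 against LIF_2i (lost without the R1 primed_4d library at −0.23, the IB10 LIF_2i library at −0.30 or the R1 LIF_2i library at −0.33) and by 0.40 ± 0.11 against rosette_LIM (lost without the R1 primed_4d library at −0.32 or the R1 rosette_LIM library at −0.31). Atic, the last enzyme of IMP synthesis, fell by 0.89 ± 0.13 in rosette_LIM against LIF_2i, and this call was lost without the IB10 (−0.81) or the R1 (−0.98) LIF_2i library.

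Among genes that use or carry serine, glycine and threonine, 8 of 20 tested rose and 4 fell in primed_4d against LIF_2i, 1 rose and 1 fell in rosette_LIM against LIF_2i, and 11 rose and 4 fell in primed_4d against rosette_LIM. The shares of all genes were 18.3% higher and 19.6% lower, 3.19% higher and 2.35% lower, and 17.1% higher and 19% lower in these comparisons. The median log2 fold change of this list was 0.26 in primed_4d against LIF_2i and 0.51 in primed_4d against rosette_LIM, beside −0.01 and −0.00 for all genes. Gatm, which uses glycine for creatine synthesis, had 68 UMIs in primed_4d, against 5 in LIF_2i and 4 in rosette_LIM. Slc6a9, a glycine transporter, was at 18.0 and 18.4 CPM in primed_4d (IB10 and R1), 5.27 and 3.83 CPM in rosette_LIM, and 5.39 and 3.00 CPM in LIF_2i, and rose by 2.13 ± 0.29 against LIF_2i.

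Sfxn3, of the sideroflexin family of mitochondrial serine carriers, was at 1.14 and 1.28 CPM in primed_4d (IB10 and R1), 9.18 and 11.5 CPM in rosette_LIM, and 12.3 and 10.01 CPM in LIF_2i. It fell by 3.19 ± 0.38 in primed_4d against LIF_2i. The phosphatidylserine synthase Ptdss1 fell by 1.18 ± 0.16 in primed_4d against LIF_2i, and Sptlc2, which joins serine to palmitoyl-CoA, by 0.83 ± 0.14 in primed_4d against rosette_LIM. Slc38a2, a transporter of small neutral amino acids, rose in rosette_LIM against LIF_2i by 1.00 ± 0.16 (0.64 and lost without the IB10 LIF_2i library). Sfxn1 fell there by 0.45 ± 0.12, and this call was lost without the R1 rosette_LIM library (−0.39), the IB10 LIF_2i library (−0.53) or the R1 LIF_2i library (−0.39).

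**Figure D5:**
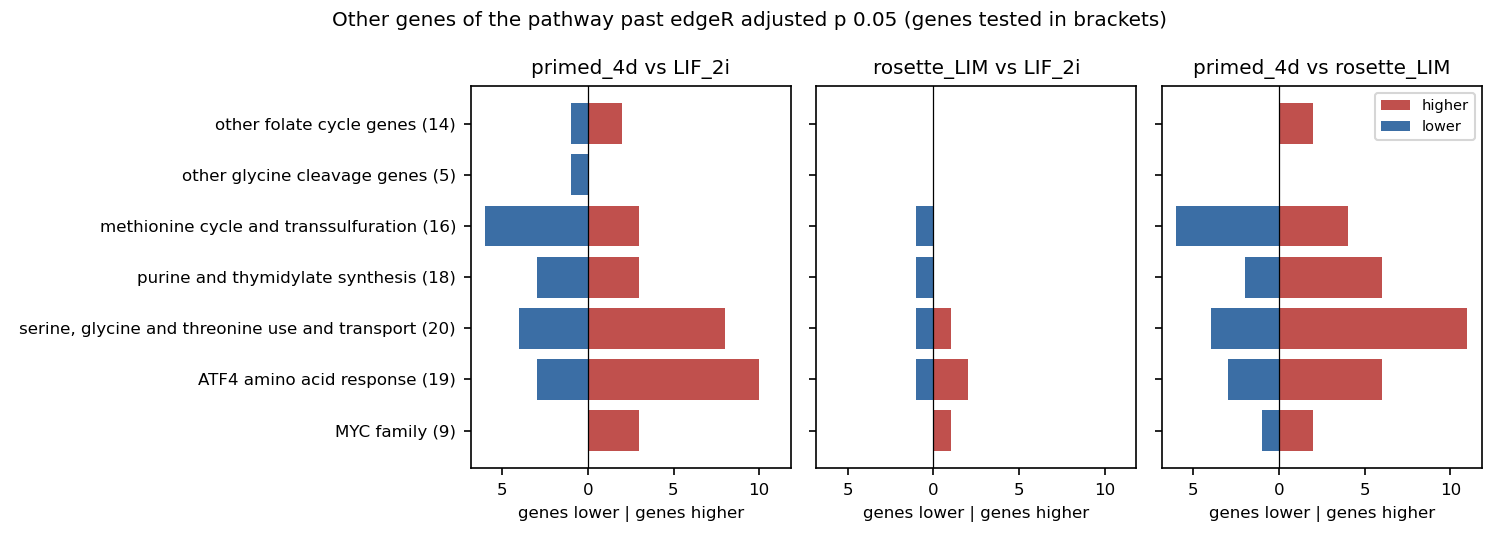
Number of genes per pathway list (rows, with the number tested in brackets) that rose (right of 0) or fell (left of 0) at edgeR's adjusted p below 0.05 in primed_4d against LIF_2i, rosette_LIM against LIF_2i, and primed_4d against rosette_LIM. The longest bars are the 11 higher genes of serine, glycine and threonine use in primed_4d against rosette_LIM and the 10 higher genes of the ATF4 list in primed_4d against LIF_2i.

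Of 19 tested genes of the ATF4 amino acid response, which is known to drive serine synthesis genes when amino acids run short, 10 rose and 3 fell in primed_4d against LIF_2i, 2 rose and 1 fell in rosette_LIM against LIF_2i, and 6 rose and 3 fell in primed_4d against rosette_LIM (all genes: 18.3% higher and 19.6% lower, 3.19% and 2.35%, 17.1% and 19%). Chac1 (2.82 ± 0.32) and Stc2 (1.91 ± 0.29) rose most and the asparagine synthetase Asns (−0.91 ± 0.11) and Nupr1 (−0.87 ± 0.19) fell most in primed_4d against LIF_2i. Of 9 tested MYC family genes, 3 rose in primed_4d against LIF_2i, 1 in rosette_LIM against LIF_2i, and 2 rose and 1 fell in primed_4d against rosette_LIM, beside the same shares of all genes. Myc was at 52.7 and 41.3 CPM in primed_4d (IB10 and R1), 9.38 and 10.96 CPM in rosette_LIM, and 18.5 and 15.0 CPM in LIF_2i, and rose by 1.49 ± 0.18 in primed_4d against LIF_2i. Mycn rose in rosette_LIM against LIF_2i by 0.73 ± 0.12 (0.57 and lost without the R1 LIF_2i library).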

How the data were processed

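The deposited table gives, per gene and well, an expected count that the authors made from UMIs. BWA and the build mm10/GRCm38 appear in the submitters' processing notes, while versions, annotation and strand setting were not found in the labels or the table. Each of the 1297 distinct values matches, within 0.005, a whole number of UMIs corrected for collisions among 4096 possible ones, so the values were taken as unscaled counts. All 1128 columns were used. ERCC rows (1.75% of counts) stayed out of library sizes and tests.

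Since wells are not replicates, counts were added up per library and rounded. edgeR 4.0.16 in R 4.3.3 fitted condition and cell line to all 6 libraries (TMM, filterByExpr with a minimum count of 10, quasi-likelihood test, two-sided, Benjamini-Hochberg over 12098 genes, threshold 0.05, biological coefficient of variation 0.103). The fit was also run on simulated counts without a difference between the lines, which does not measure its error rates in these data. Cell line is a block because same-numbered libraries come from the same line. Across genes, the difference between IB10 and R1 had a Pearson correlation of 0.226 between primed_4d and LIF_2i, 0.163 between rosette_LIM and LIF_2i, and 0.0973 between primed_4d and rosette_LIM. With 2 against 2 libraries an exact permutation test cannot go below p = 0.333, so none was run. A condition-by-line term would leave no residual degrees of freedom and was not tested. DESeq2 1.42.0 and limma 3.58.1 on log2(CPM + 5) were alternatives, with the others given in the closing section.

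All 10 enzyme genes are named. In the other lists, the 2 largest rises and falls past the threshold in each comparison were named, with fewer given for the ATF4 and MYC lists and 1 folate gene not reported here, and like genes were sought for enzyme genes with an absolute log2 fold change of at least 1. The members and lists were chosen with earlier results of these data known. Coordinates are GRCm38 from GENCODE M21, matched by symbol.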

Additional observations from a re-analysis of the deposited data

Results flagged for a closer look

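In 4 cases the 2 cell lines moved in opposite directions under the same contrast. This difference between the lines was not tested, because each line has 1 library per condition. Gldc in rosette_LIM against LIF_2i was higher by 0.60 log2 units in IB10, while in R1 the difference was −0.18, so that IB10 exceeded R1 by 0.78. Psat1 in the same comparison gave −0.02 in IB10 and 0.15 in R1, a difference of −0.17. Mthfd1l gave −0.00 in IB10 and 0.10 in R1, a difference of −0.10. Shmt1 in primed_4d against rosette_LIM gave −0.01 in IB10 and 0.02 in R1, a difference of −0.037.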

How the results depend on the processing

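For the 10 genes, 154 of 160 values under 16 alternatives kept direction and side of the threshold in primed_4d against LIF_2i, 147 of 160 in rosette_LIM against LIF_2i, 148 of 160 in primed_4d against rosette_LIM, and 131 of 140 in IB10 against R1. Without the replicate block, the counts of the 10 genes called stayed at 9, 2 and 7 in the 3 comparisons of conditions. All genes called in rosette_LIM against LIF_2i then numbered 281, against 670 with it.

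Fewer genes were called with DESeq2 (2775 in primed_4d against LIF_2i instead of 4581, 279 in rosette_LIM against LIF_2i, 2702 in primed_4d against rosette_LIM instead of 4372, and 48 in IB10 against R1 instead of 91). With wells thinned to 6000 UMIs they numbered 1914, 237, 1912 and 29. With no low-count filter they numbered 1049 in rosette_LIM against LIF_2i and 328 in IB10 against R1, where 1 of the 10 genes, Gldc, was then called. With 2 groups only in the fit, 1278 were called in rosette_LIM against LIF_2i. The cause was not tested.

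Leaving out 1 library gave 6 to 9 of the 10 genes and 2317 to 5454 of all genes in primed_4d against LIF_2i, 1 to 3 and 63 to 958 in rosette_LIM against LIF_2i, 6 to 7 and 3062 to 3900 in primed_4d against rosette_LIM, and 0 to 1 and 0 to 379 in IB10 against R1. The lowest counts of all genes came without the R1 LIF_2i library, except in primed_4d against rosette_LIM, where it was the R1 primed_4d library. In rosette_LIM against LIF_2i, values of changed sign ran from −0.14 to 0.55 for Gldc, −0.034 to 0.072 for Shmt2, −0.023 to 0.11 for Mthfd1l and −0.043 to 0.16 for Psat1. Shmt1 ran from −0.047 to 0.057 in primed_4d against rosette_LIM and from −0.036 to 0.0499 in IB10 against R1, and Mthfd1l from −0.026 to 0.049 in IB10 against R1. None of these but Gldc passed the test in any of them.

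Thinning left 8, 1, 6 and 0 of the 10 genes called, with Shmt1 at −0.43 in rosette_LIM and Shmt2 at 0.22 against LIF_2i and 0.35 against rosette_LIM in primed_4d, none past the threshold. It changed the sign of Shmt2 (−0.13) and Mthfd2 (−0.14) in rosette_LIM against LIF_2i, of Gcat (−0.082) and Shmt1 (−0.10) in primed_4d against rosette_LIM, and of Mthfd1l (−0.021) in IB10 against R1. Other changes of sign were Shmt2 at −0.0032 without rescaling, Shmt1 at −0.0047 with no low-count filter, and Mthfd1l at −0.0011 without the 2 wells above 300000 UMIs. The shallow R1 primed_4d library and 1 library per line and condition limit what could be detected.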

Other observations

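Of the 20 tested genes that use or carry serine, glycine and threonine, 1 differed between the lines over all 3 conditions. Of all genes tested, 0.752% were called, 0.512% as lower in IB10. Slc7a5, a transporter of large neutral amino acids, was at 112, 66.0 and 97.1 CPM in primed_4d, rosette_LIM and LIF_2i cells of IB10, against 167, 124 and 127 CPM in those of R1 (log2 fold change −0.62 ± 0.11, edgeR adjusted p = 0.0170). It was lower in IB10 in 3 of 3 conditions. The call was lost without the R1 LIF_2i library (−0.74, edgeR adjusted p = 0.189), without the IB10 LIF_2i library (−0.74, adjusted p = 0.0991) and with wells thinned to 6000 UMIs (−0.62, adjusted p = 0.0523).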
